A study of Caenorhabditis elegans with 4 samples.

Results

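The 10 genes followed here act in neuropeptide processing and dense core vesicle release in Caenorhabditis elegans: egl-3, egl-21, pgal-1, pghm-1, sbt-1, ida-1, unc-31, aex-5, kpc-1 and bli-4. Members were spotted probes to which the platform annotation gave 1 of these symbols and no other gene. Of the 10 genes listed, 8 had such a probe, among 14958 named genes on the array. No probe carried the name or gene number of pghm-1 or kpc-1, which were not analysed here. Each of the 8 genes had 1 probe and a value on every array, so all 8 entered the test.

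Neuropeptides are made as long precursors that enter the secretory pathway and are packed into dense core vesicles. A proprotein convertase cuts the precursor at pairs of basic residues, a carboxypeptidase trims the basic residues left at the new ends, and a pair of enzymes turns an end glycine into an amide. The vesicles fuse with the plasma membrane after calcium entry, away from the synaptic vesicle sites, with the help of the CAPS protein UNC-31. In C. elegans this machinery works mainly in neurons, while convertases of the same family also work in intestine, muscle and epidermis.

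Adults of the glp-4 genotype gave the tested mRNA in 4 preps, labelled 1 to 4, and each prep was hybridised on an array of its own against wild-type mixed reference RNA. A valyl-tRNA synthetase is the product of glp-4, and its temperature-sensitive mutant fails to build a normal germ line at the restrictive temperature. The allele, temperature, age and growth of the adults, what was mixed in the reference, and whether the preps were separate cultures are not stated in the labels used here. If the preps share a culture, the p-values describe technical spread between these 4 arrays.

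Values are log2 ratios, and 0 means an equal share of the RNA in both channels once the array is centred. The ratio is likely glp-4 adults over reference, since every array is described in that order with the reference in channel 1; no dye is named, and in the other direction all signs below would turn. The labels name no array with exchanged channels, and any dye bias of a spot would then remain in its mean. Array medians lay between -0.07 and 0.08, and arrays correlated with r of 0.727 to 0.796 across features. The SD of all values ran from 0.871 on prep 1 to 1.21 on prep 2. In the test of the mean ratio against 0 with limma, 4174 of 19981 features (20.9%) were lower in glp-4 adults and 3403 (17%) were higher, at a Benjamini-Hochberg adjusted p under 0.05. Without prep 4 the higher features numbered 2091. The wild-type spread is not part of that test, because the reference is the only wild-type RNA. Errors after ± are SDs over the 4 preps.

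Of the 8 measured genes, 5 were lower in glp-4 adults and 1 was higher, while 2 did not pass, beside 20.9% lower and 17% higher among all features. The 5 lower genes were egl-3, egl-21, pgal-1, sbt-1 and ida-1, with mean log2 ratios from -1.58 to -1.24, or 2.37-fold to 2.99-fold lower. The higher gene was aex-5, at 1.86-fold, and unc-31 and bli-4 did not pass. The median over the 8 genes was -1.32, beside 0.00 over all features tested. These are shares of whole-animal RNA, in which fewer cells of a type and less RNA per cell cannot be told apart.

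**Figure D1:**
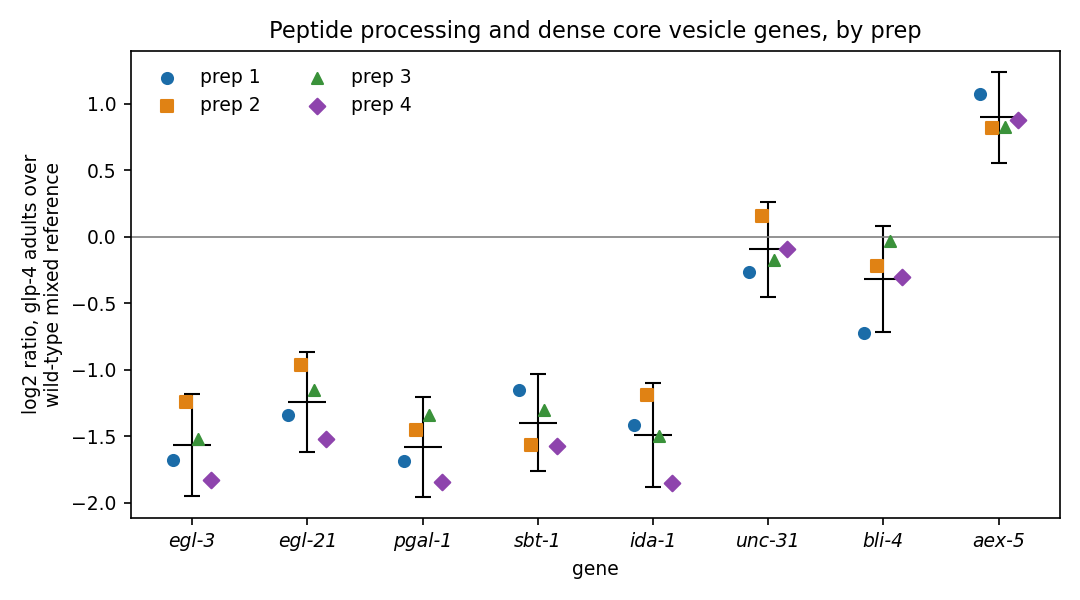
Log2 ratio of glp-4 adults over wild-type mixed reference (vertical axis) for the 8 measured genes (horizontal axis); coloured points are the 4 preps, black bars the mean and its 95% interval from limma. The 5 genes on the left sit between -1.85 and -0.96 on every prep, and unc-31 has points on both sides of 0. The points of bli-4 lie below 0 on every prep, from -0.72 to -0.03, and aex-5 lies above 0 on every prep.

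The cleavage step was represented by egl-3 (C51E3.7), the convertase of the PC2 type that cuts most neuropeptide precursors, and by sbt-1 (T03D8.3), its chaperone of the 7B2 type. On preps 1 to 4, egl-3 had log2 ratios of -1.68, -1.24, -1.52 and -1.83 in glp-4 adults over reference. All 4 values lay well below 0, with prep 4 the lowest and prep 2 the highest. The mean was -1.57 ± 0.25, 2.96-fold lower with a 95% interval of 2.27-fold to 3.85-fold, at an adjusted p of 0.000599 in limma. The chaperone gene sbt-1 had values of -1.16, -1.56, -1.30 and -1.57. It too was below 0 on every prep, here with prep 1 the highest. Its mean was -1.40 ± 0.21, 2.64-fold lower, at an adjusted p of 0.000773 in limma. The enzyme gene and its chaperone gene differed by -0.17 ± 0.35 (egl-3 minus sbt-1 within each array), with an interval of -0.68 to 0.35, and the sign of that difference was not the same on every array.

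End trimming is the work of egl-21 (F01D4.4), the carboxypeptidase E of the worm. Its log2 ratios were -1.34, -0.96, -1.15 and -1.52 on preps 1 to 4. The preps kept the order seen for egl-3, and egl-21 lay above egl-3 on every array, by 0.28 to 0.37. The mean of egl-21 was -1.24 ± 0.24, 2.37-fold lower, at an adjusted p of 0.00134 in limma. The difference egl-3 minus egl-21 was -0.32 ± 0.04. In a limma fit of every feature minus egl-3, its 95% interval was -0.82 to 0.17, at an adjusted p of 0.199. That fit pools spread over features that all share the egl-3 values, so the interval does not reflect this SD alone. The exact two-sided sign permutation of this difference gave p = 0.13, the smallest that 4 arrays allow. After Benjamini-Hochberg adjustment over the 4 differences from egl-3, this permutation p was 0.500.

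Amidation is completed by the lyase encoded by pgal-1 (F21F3.1), which acts after the hydroxylase encoded by pghm-1. The log2 ratios of pgal-1 were -1.69, -1.45, -1.34 and -1.85 on preps 1 to 4, with prep 4 again the lowest. The mean of -1.58 ± 0.23 was the lowest of the 8 genes, 2.99-fold lower with a 95% interval of 2.31-fold to 3.87-fold, at an adjusted p of 0.000537 in limma. The difference egl-3 minus pgal-1 was 0.02, with an interval of -0.48 to 0.51. The gene pamn-1 (T19B4.1) encodes an enzyme with both amidation activities and is not among the 10 genes. It had a smaller difference, with values of -0.98, -0.73, -0.54 and -0.66 and a mean of -0.73 ± 0.19 (1.66-fold lower, adjusted p = 0.00937 in limma). On every prep pamn-1 was closer to 0 than pgal-1. The carboxypeptidase genes cpd-1 and cpd-2, relatives of egl-21, had means of 0.06 and 0.29 and did not pass.

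The vesicle itself was represented by ida-1 (B0244.2), which encodes a dense core vesicle membrane protein of the IA-2 family and is a usual marker of neuroendocrine cells in the worm. Its log2 ratios were -1.42, -1.19, -1.5 and -1.85. As for egl-3, prep 4 was lowest and prep 2 highest. The mean was -1.49 ± 0.27, 2.81-fold lower, at an adjusted p of 0.000785 in limma. On the same arrays the release factor gene unc-31 (ZK897.1) had -0.26, 0.16, -0.17 and -0.09. These values straddle 0 and overlap with none of the 5 lower genes. The mean of unc-31 was -0.09 ± 0.18, with a 95% interval of -0.45 to 0.26 and an adjusted p of 0.648 in limma, so the interval covers differences up to 1.37-fold lower and 1.2-fold higher.

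Set against unc-31 on the same array, the 5 processing and vesicle genes were lower on each of the 4 arrays. The differences in log2 ratio were -1.49 for pgal-1, -1.47 for egl-3, -1.40 for ida-1, -1.31 for sbt-1 and -1.15 for egl-21. Single arrays ranged from -1.76 for ida-1 on prep 4 to -0.89 for sbt-1 on prep 1. A limma fit of every feature minus unc-31 was chosen after seeing the data. In that limma fit these 5 differences had adjusted p between 0.000380 (egl-3) and 0.00164 (egl-21). The 5 genes were picked by their lower call on these same arrays, so these p-values add no support to that call. All features of the fit also share the unc-31 values. The difference for bli-4 was -0.22, with an interval of -0.67 to 0.23. The exact sign permutation gave p = 0.13 for each of the 5 genes, the limit of 4 arrays, and 0.146 after adjustment over the 7 comparisons with unc-31.

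**Figure D2:**
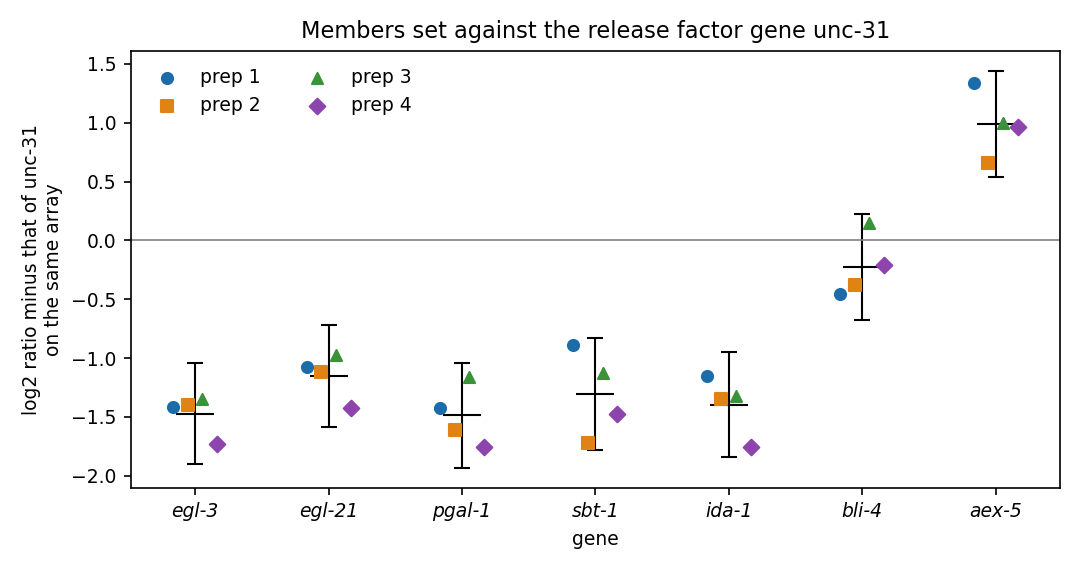
Log2 ratio of each gene minus that of unc-31 on the same array (vertical axis) for 7 genes (horizontal axis); coloured points are the 4 preps, black bars the mean and its 95% interval from limma. The 5 lower genes lie between -1.76 and -0.89, aex-5 lies above 0, and the points of bli-4 fall on both sides of 0.

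The 5 lower genes lay close together: their means spanned 0.34 on the log2 scale. By mean ratio they stood between percentiles 4.54 (pgal-1) and 7.56 (egl-21) of all features, so 908 features lay below pgal-1. Within each array, egl-3 stood at percentiles 4.04, 13, 3.87 and 3.89 on preps 1 to 4. Prep 2 thus placed egl-3 less far out than the others, and prep 2 had the widest spread of values. All 5 lower genes had their lowest deposited value on prep 4. That order depends on the arrays' spread: with arrays scaled to a common spread, prep 1 was lowest for egl-3 (-2.0, against -1.64 on prep 4), egl-21 and pgal-1, and the mean of egl-3 was -1.61. The SDs of the 8 genes ran from 0.12 to 0.29, below the median SD of 0.346 over all features tested.

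Likeness to egl-3 was measured as the mean absolute difference of log2 ratio over the 4 preps, across 14413 other named genes with a value on every array. The nearest gene was ida-1 (0.0884) and the next pgal-1 (0.106), followed by grl-19, prg-1 and ttr-29 at 0.142 to 0.150. In that order sbt-1 ranked 150 and egl-21 ranked 136. Nearest to egl-21 were eif-3.E (0.0788), nlp-31, gfat-1, lpr-5 and the FMRFamide-like precursor gene flp-1 (0.102). These ranks describe 4 arrays that share 1 reference, and say only which genes had the most similar ratios.

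**Figure D3:**
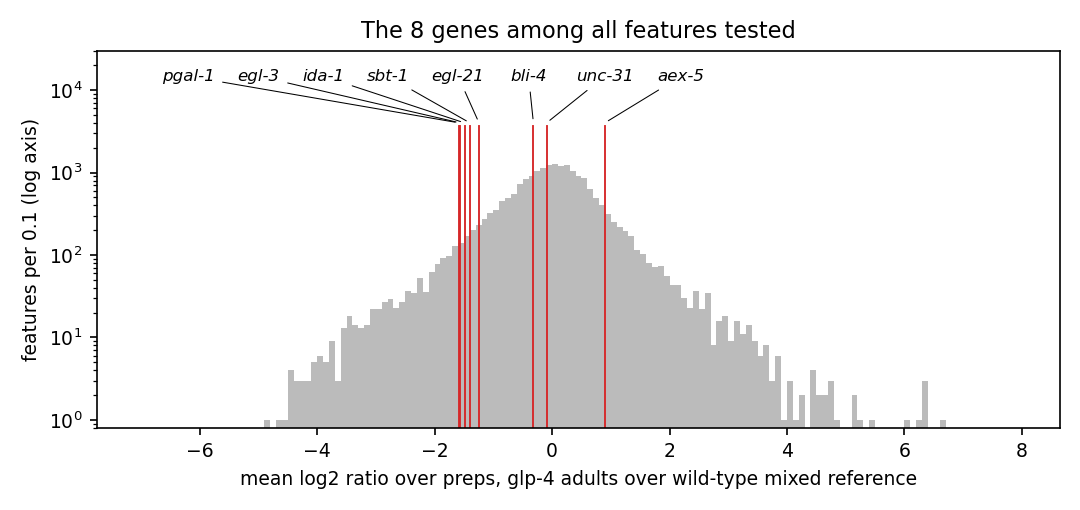
Histogram of the mean log2 ratio over preps of the features tested (horizontal axis, bins of 0.1; vertical axis, features per bin, log scale), with red lines at the means of the 8 measured genes. The lines of pgal-1, egl-3, ida-1, sbt-1 and egl-21 stand side by side in the lower tail, between -1.58 and -1.24.

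The convertase family differed within itself. The product of aex-5 (F32A7.6) acts outside neurons, in intestine and muscle, in the signalling that times defecation. Its log2 ratios were 1.08, 0.81, 0.83 and 0.87 on preps 1 to 4. They were above 0 on every prep and had the smallest SD of the 8 genes. The mean was 0.90 ± 0.12, 1.86-fold higher with a 95% interval of 1.47-fold to 2.36-fold, at an adjusted p of 0.00330 in limma. The epidermal convertase gene bli-4 (K04F10.4), whose product is needed to process cuticle collagens, had -0.72, -0.22, -0.03 and -0.30. Its values were below 0 on each prep but differed widely, with prep 1 the lowest and prep 3 the closest to 0. The mean of -0.32 ± 0.29 did not pass (95% interval -0.71 to 0.08, adjusted p = 0.175 in limma).

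Within the arrays, egl-3 minus aex-5 was -2.75, -2.06, -2.35 and -2.70, with a mean of -2.46 ± 0.33, a 5.52-fold gap between their ratios. The difference egl-3 minus bli-4 was -0.96, -1.02, -1.49 and -1.53, with a mean of -1.25 ± 0.30 (2.38-fold). Both differences had 1 sign on all 4 arrays. The exact two-sided sign permutation gave p = 0.13 for each, and 0.13 after adjustment over both, which is the smallest p that 4 arrays can give. In the limma fit of every feature minus egl-3, chosen after seeing the data, the intervals were -2.98 to -1.95 for aex-5 and -1.76 to -0.74 for bli-4 (adjusted p = 1.13e-07 and 0.000108). Every feature in that fit shares the same egl-3 values, so these p-values do not rest on independent spreads.

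Of 9 tested genes of the defecation motor program, 3 (33.3%) were higher and 2 (22.2%) lower, beside 17% and 20.9% of all features. The median of the list was -0.04. The higher genes were aex-5, aex-1 (1.13 ± 0.40), which is needed for secretion from the intestine, and pbo-4 (1.30 ± 0.25), which encodes the intestinal sodium-proton exchanger that signals to muscle. The lower genes serve the GABA neurons of the program: unc-25, the enzyme that makes GABA, had -0.83 ± 0.25, and unc-47, the vesicular GABA transporter, had -0.66 ± 0.46. The call of unc-47 was lost without prep 2, prep 3 or prep 4, at means of -0.86 to -0.49 over the 4 omissions. The intestinal genes aex-4, a SNAP-type fusion protein, and aex-2 in the neurons that receive the signal did not pass (0.29 ± 0.55 and -0.08 ± 0.14).

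Beside the list counts that follow, 17% of all features were higher and 20.9% lower. Most genes of the intestine marker list were higher, as aex-5 was: 9 of 10 genes were higher and none was lower, with list medians of 2.13 to 2.56 on the 4 preps. The highest were cpr-5 (3.52 ± 0.57), a cysteine protease, and pgp-1 (3.20 ± 0.24), an ABC transporter. They were followed by pept-1 (2.68 ± 0.38), which takes up small peptides, and nhx-2 (2.61 ± 0.42), which exchanges sodium for protons. Muscle markers had 5 of 10 higher, with medians of 0.16 to 1.64, and 3 of 10 when prep 1, prep 2 or prep 3 was left out. The highest muscle genes were dim-1 (1.73 ± 0.67), the troponin T gene mup-2 (1.40 ± 0.61), the myosin gene myo-3 (1.11 ± 0.66) and the paramyosin gene unc-15 (0.81 ± 0.54), whose call was lost without prep 1, prep 2 or prep 3. The part of these tissues in the ratio of aex-5 was not tested. For the epidermis, 3 of 9 markers were higher and 5 lower, with medians of -1.36 to -0.43. The higher ones were bli-1 and the collagen genes col-19 (3.74 ± 0.64) and col-12 (1.41 ± 0.78), and the lowest were rol-6, the collagen gene dpy-7 (-1.62 ± 0.49), the matrix gene noah-1 (-1.56 ± 0.57) and the transcription factor gene lin-26 (-1.28 ± 0.43). Among 10 cuticle genes that accompany bli-4, 2 were higher and 2 lower, 20% each way and near the shares of all features. Without prep 1 the count of higher genes was 4. The collagen genes bli-1 and bli-2, which build the struts of the adult cuticle, had means of 1.52 ± 0.92 and 2.64 ± 0.76, while the collagen genes dpy-17 and rol-6 had -2.72 ± 0.59 and -1.33 ± 0.74. Of 4 tested partners of kpc-1 in the dendrites of the PVD neurons, 1 was lower: dma-1, the dendrite receptor, at -0.72 ± 0.56, which was above 0 on prep 1 and was named after its values were seen. That call was lost without prep 2, prep 3 or prep 4.

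Other genes that make, move and release dense core vesicles mostly did not pass, which also held for all features (20.9% lower and 17% higher). Of 14 tested genes of vesicle making and transport besides ida-1 and sbt-1, 2 were lower and 1 higher, while 11 did not pass, with a median of -0.18. The lower ones were tbc-8, a GTPase-activating protein gene of the Rab2 pathway (-0.62 ± 0.25), and the kinesin gene unc-104, which carries vesicles along axons (-0.55 ± 0.13). The call of tbc-8 was lost without prep 1 or prep 4, and that of unc-104 without prep 1, prep 2 or prep 4. The higher one was rund-1, another gene of the Rab2 pathway, with 1.18, 1.18, 0.43 and 1.17 on preps 1 to 4 (mean 0.99 ± 0.37). The vesicle maturation genes hid-1, cccp-1 and ric-19 had means of -0.02, 0.26 and -0.17 and did not pass.

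Of 18 tested genes of regulated release and its signalling besides unc-31, 3 were lower and 1 higher, while 14 did not pass, with a median of -0.14. Lower were ric-4, a SNARE gene (-1.04 ± 0.42), the priming factor gene unc-13 (-0.94 ± 0.31) and the phosphodiesterase gene pde-4 (-0.54 ± 0.24). The call of pde-4 was lost when any 1 prep was left out. The regulatory subunit gene of protein kinase A, kin-2, was higher (0.82 ± 0.10), and without prep 1 the count of higher genes was 2. The kinase gene pkc-1, which promotes peptide release, had -0.43 ± 0.38, and the syntaxin gene unc-64 had 0.17 ± 0.17, neither past the threshold. The 32 genes in both vesicle lists together had a median of -0.15, and the lowest mean was that of ric-4.

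**Figure D4:**
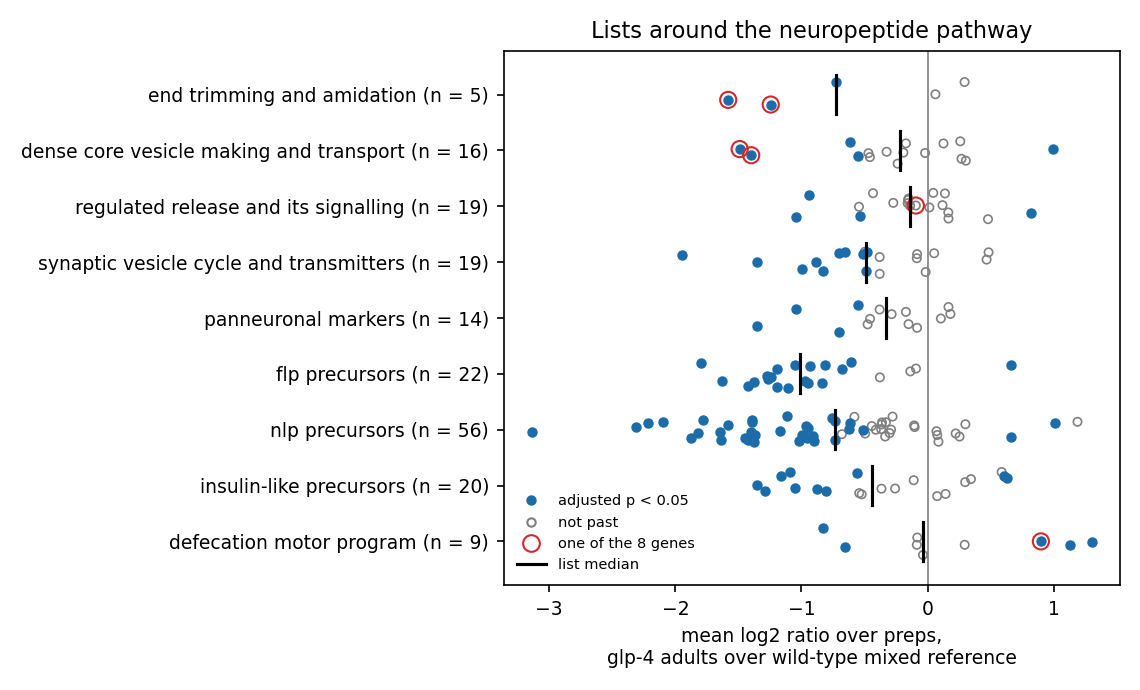
Mean log2 ratio over preps (horizontal axis) for the tested genes of 9 lists (rows, n genes each); filled points have an adjusted p under 0.05, open points do not, red rings mark the measured genes of the pathway and black bars the list medians. The ringed processing and vesicle genes lie at the low end of their lists, unc-31 lies near its list's median of -0.14, and aex-5 is among the 3 highest genes of its list.

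The neuron lists had medians nearer to 0 than the median of -1.32 over all measured pathway genes, called or not. The means of the 5 lower genes are no like measure for whole lists, because those genes were picked by their call. Of 19 genes of the synaptic vesicle cycle and of transmitters, 10 (52.6%) were lower and 0 higher, beside 20.9% and 17% of all features. The median was -0.49, and without any 1 prep the lower count was 6. The lowest was the synaptotagmin gene snt-1, the calcium sensor of synaptic vesicle release, with log2 ratios of -1.31, -1.44, -0.43 and -4.61 on preps 1 to 4. Its mean of -1.95 ± 1.83 (adjusted p = 0.0431 in limma) lay below those of all 5 lower pathway genes, but was -1.06 without prep 4, and the call was lost without prep 1 or prep 2. Next were the synaptic vesicle protein gene sng-1 (-1.36 ± 0.18), the vesicular glutamate transporter gene eat-4 (-1.0 ± 0.47) and the GABA transporter gene snf-11 (-0.89 ± 0.19). Of 14 panneuronal markers, 4 (28.6%) were lower and 0 higher, with a median of -0.33 and list medians of -0.49 to -0.15 on the 4 preps. That lower share is near the 20.9% of all features, and without 1 prep the lower count was 3 to 4. The lower ones were sng-1, ric-4 and unc-104, given above, and the vesicle GTPase gene rab-3 (-0.70 ± 0.17). The 10 that did not pass ran from maco-1 (-0.48 ± 0.49) and ehs-1 (-0.46 ± 0.24) to rgef-1 (0.18 ± 0.73). In between lay unc-10 (-0.38 ± 0.16), tbb-1 (-0.29 ± 0.17), snb-1 (-0.15 ± 0.15), unc-11 (-0.08 ± 0.16) and unc-119 (0.10 ± 0.14), among others. The part of neuron content in the ratios of the 5 lower genes was not tested. Because ratios of different genes were compared, the difference between lists is given as values, without a test.

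Genes for peptide precursors, the kind of substrate this pathway cuts, were also measured. They were taken by symbol, so membership does not show that a product is cut by this pathway. The nlp genes counted below include epidermal ones of the nlp-29 group, such as nlp-29 itself (-1.82 ± 0.24) and nlp-32. Of 78 tested flp, nlp and other peptide precursor genes, 50 were lower and 3 higher, beside 20.9% and 17% of all features, with a median of -0.91. The 22 flp genes, which encode FMRFamide-like peptides with amidated ends, had 18 lower and 1 higher, with medians between -1.13 and -0.93 on the 4 preps. The lowest were flp-15 (-1.79 ± 0.26), flp-19 (-1.63 ± 0.24), flp-24 (-1.43 ± 0.12) and flp-21 (-1.38 ± 0.39). The higher one, flp-23 (0.66 ± 0.49), lost its call without prep 1, prep 2 or prep 4. Of the 78 precursors, 12 had a lower mean than egl-3, and 11 had a higher mean than unc-31. Of the 56 nlp and other precursors, 32 were lower and 2 higher, with a median of -0.74. The lowest were nlp-14 (-3.14 ± 2.45), whose mean was -1.92 without prep 3, nlp-32 (-2.31 ± 0.29), nlp-12, the cholecystokinin-like precursor gene (-2.22 ± 0.28), and nlp-55 (-2.10 ± 0.39). All 4 had lower means than each of the 8 pathway genes. Both nlp-22 (0.66 ± 0.35) and nlp-36 (1.01 ± 0.32) were higher, and the call of nlp-22 was lost without prep 2, prep 3 or prep 4.

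Of 20 insulin-like precursor genes, 8 were lower and 2 higher, beside 20.9% and 17% of all features, while 10 did not pass. The median was -0.44. Their precursors also need convertase cleavage. The lowest were ins-35 (-1.35 ± 0.40), ins-17 (-1.29 ± 0.23), ins-18 (-1.16 ± 0.34) and ins-30 (-1.09 ± 0.12). The higher genes were ins-7 (0.63 ± 0.19) and ins-26 (0.61 ± 0.44), which was below 0 on prep 1, and the count of higher genes was 0 without prep 2 or without prep 4. The egg-laying circuit holds many dense core vesicles. Of 11 tested genes listed for its HSN and VC neurons and for the neuroendocrine uv1 cells, 6 were lower and 0 higher, ida-1 included. The count also holds flp-17, which is not taken here as a marker of these cells. Among all features 20.9% were lower and 17% higher, and without any 1 prep the lower count of these listed genes was 5. The lowest was tdc-1, which makes tyramine in uv1 cells, in a few neurons and in gonadal sheath cells, at -2.65 ± 0.26 (6.29-fold lower, adjusted p = 0.000118 in limma). Also lower were the precursor genes nlp-3 (-1.64 ± 0.26), flp-11 (-1.20 ± 0.14), flp-17 (-0.68 ± 0.22) and nlp-7 (-0.52 ± 0.26), which are already counted among the precursors above. The serotonin synthesis gene tph-1 had 0.05 ± 0.30 and did not pass. Neither did cat-1 (0.48 ± 0.57), lin-11 (0.20 ± 0.08), unc-4 (-0.12 ± 0.29) or ocr-2 (-0.19 ± 0.29).

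As a check of the labelled genotype, 12 of 12 germline markers were lower, with list medians of -3.82 to -2.84 on the 4 preps. The lowest were the eggshell proteoglycan gene cpg-2 (-4.84 ± 0.23) and the RNA-binding protein genes pos-1 (-4.66 ± 0.28), oma-2 (-4.60 ± 0.60) and mex-5 (-3.92 ± 0.81). The lower processing genes were closer to 0 than each of these markers, whose means ran from -4.84 to -1.69. Probes and gene names are those of the array design, and how far each spot stood above background is unknown.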

How the data were processed

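Per the labels, 2-channel arrays were hybridised with glp-4 adult mRNA in channel 2 and wild-type mixed reference RNA in channel 1. The deposited values are log2 ratios per spot, 21632 spots on each of 4 arrays; values below -2 were log2 of whole multiples of 0.001 within 1e-06 in 100% of cases. Scanner, dyes, background correction, normalization, centring and spot filter are not stated in the labels used here. Precision is limited by the number of arrays. The values were used as deposited.

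Genes were named by the platform annotation (16450 probes with 1 gene, 247 with several, 4935 not listed); 16360 matched RefSeq WBcel235 by gene number, changing 0 symbols. Probes of 1 gene were averaged per array (20140 features). For features measured on 3 or more arrays, the mean ratio was tested against 0 with limma 3.58.1 in R 4.3.3 (intercept, eBayes, two-sided, Benjamini-Hochberg over 19981 features), tested on simulated data. Tables used Python 3.11.15, pandas 2.3.3 and matplotlib 3.10.9.

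Members and lists were chosen with earlier results of these data known. Named were all measured members, the up to 4 lowest and 4 highest genes of a list past the threshold with 1 sign on every array, and the 5 genes nearest to egl-3 and to egl-21. Genes named outside that rule were chosen after their values were seen. Sequences are not used here. Alternatives were other centring, scaling, probe summaries, filters, variance models, array weights and omission of each prep.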

Additional observations from a re-analysis of the deposited data

Results flagged for a closer look

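Of 73 named genes with a value on all 4 preps, 2 had 1 prep set far apart from the other 3 by Dixon's criterion, which chance alone meets in about 1 of 20 groups; 0 of the 8 pathway genes were among them. The Rab2 pathway gene rund-1 had a log2 ratio of 0.43 on prep 3, against 1.17 to 1.18 on the other preps, and its mean without prep 3 was 1.18. The precursor gene nlp-14 had -6.80 on prep 3, against -2.27 to -1.62 on the others, and its mean without prep 3 was -1.92.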

How the results depend on the processing

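The ratios of the 8 pathway genes kept their sign and their side of the threshold under the 12 alternatives run, and the counts of 5 lower and 1 higher did not change. Each of the 8 genes had 1 probe and a value on every array. The probe summaries, the filter and the variance model could therefore change only the adjusted p of these genes, not their ratios. Over these alternatives the adjusted p in limma ranged from 0.000437 to 0.00398 for egl-3, from 0.00286 to 0.0161 for aex-5, from 0.141 to 0.448 for bli-4 and from 0.453 to 0.889 for unc-31. The differences egl-3 minus aex-5 (-2.46) and egl-3 minus bli-4 (-1.25) passed only in the limma fit added after seeing the data. All features of that fit share the egl-3 values, and the exact test cannot pass with 4 arrays. Without 1 prep these differences ranged from -2.60 to -2.37 and from -1.35 to -1.16.

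List counts moved more. With the arrays of 1 title date averaged, an alternative chosen after seeing the data because limma gave no block correlation for 3 dates over 4 arrays, 6 synaptic genes, 1 defecation gene and 0 partners of kpc-1 were lower, and 0 flp, 1 nlp and 1 insulin-like gene were higher. Scaled arrays gave 1 higher synaptic gene, 0 lower partners of kpc-1 and 1 higher insulin-like gene. With values on all 4 arrays, 1 synaptic gene was higher. Array weights gave 2 higher release genes and 0 higher flp genes, and median-centred arrays and the trended robust fit each gave 1 higher insulin-like gene. Without 1 prep, lower genes numbered 2 to 4 for vesicle making, a count that includes ida-1 and sbt-1 and was 4 with all preps. Over all alternatives that count ran from 2 to 6. With 1 prep left out, lower genes numbered 6 for synaptic genes, 1 to 2 for defecation and 0 to 1 for partners of kpc-1. Higher genes then numbered 1 to 2 for release, 2 to 4 for partners of bli-4, 4 to 8 for peptidases, 0 to 1 for flp, 1 to 2 for nlp, 0 to 2 for insulin-like, 3 to 5 for muscle and 2091 to 2793 for all features. The causes were not tested. Of the 65 other genes that the naming rule chose, 9 lost their call in at least 1 alternative and 0 changed sign. Genes named outside that rule, such as dma-1 and ins-26, are not among the 65. Preps could not be paired with other samples because the 4 arrays form 1 group, while differences between genes were taken within each array.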

Other observations

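Released peptides are broken down outside the cell by neprilysin-type and dipeptidyl peptidases. Of 33 tested genes named nep, dpf or dpt-1, 7 were higher in glp-4 adults, 5 lower and 21 did not pass, with a median log2 ratio of 0.18. That is 21.2% higher and 15.2% lower, beside 17% and 20.9% of all features, so the shares are near the background. The highest were nep-17 (2.67 ± 0.18, 6.35-fold higher), nep-4 (2.00 ± 0.43), nep-22 (1.61 ± 0.31) and the dipeptidyl peptidase gene dpf-2 (1.08 ± 0.16). The lowest were nep-14 (-1.96 ± 0.64), nep-26 (-1.52 ± 0.32), dpf-6 (-1.02 ± 0.48) and dpf-7 (-0.87 ± 0.27). The family members nep-1 and nep-2 had -0.38 ± 0.41 and 0.43 ± 0.47 and did not pass. The list was taken by symbol, so membership does not show that a gene's product cuts neuropeptides. Without prep 4, the count of higher genes was 4.

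A value of this family was chosen after it was seen. On prep 2, nep-10 had a log2 ratio of 8.61, the highest value of any feature on that array, against 0.49, 0.06 and -0.11 on preps 1, 3 and 4. With a mean of 2.26 ± 4.24 it did not pass (adjusted p = 0.233 in limma).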
